A study of Mus musculus with 12 samples.

Results

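The genes described here are 43 genes that copy DNA, or supply and schedule that work, chosen by name for their roles in origin licensing, fork assembly, DNA synthesis, deoxynucleotide supply and entry into S phase. All 43 had a probe set that carried their symbol alone, out of 19938 genes measured in that way, and they held 46 such probe sets. Messenger RNA was profiled on Affymetrix Mouse Gene 1.0ST arrays in the EL-4 line, a T lymphoma of mice that grows in culture without an added stimulus. PMA with ionomycin (P/I) replaces a T cell receptor signal, since PMA activates protein kinase C and ionomycin raises intracellular calcium. Cycloheximide (CHX) stops translation elongation, so that responses which need newly made protein can be set apart from those which do not. The 4 groups of 3 biological replicates were cells given 10 µg/ml CHX and then P/I for 4 h (P/I CHX), cells given the solvent DMSO and then P/I for 4 h (P/I DMSO), cells given CHX and collected at 0 h of stimulation (unstimulated CHX), and cells given DMSO and collected at 0 h (unstimulated DMSO). PMA was used at 10 ng/ml and ionomycin at 1 µM, the pretreatment with CHX or DMSO lasted 30 min, and every group carried DMSO, because CHX was dissolved in it. No group is labelled as 4 h without P/I, so the effect of P/I and that of 4 h of further culture cannot be told apart. How long unstimulated CHX cells stayed in the drug beyond the pretreatment is not stated, so the effect of P/I in CHX-treated cells and that of a longer CHX exposure cannot be told apart. All groups came from 1 transformed line, which limits the values to a growing lymphoma.

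A cell licenses its replication origins in G1, when the origin recognition complex, Cdc6 and Cdt1 load the ring of Mcm2 to Mcm7 onto DNA. At the start of S phase, cyclin E kinases and Cdc7 turn the loaded ring into a helicase with Cdc45 and the GINS complex, primase and the polymerases begin synthesis, and ribonucleotide reductase and thymidylate synthase feed the forks with deoxynucleotides. Many of these genes are transcribed in a wave at the G1/S boundary by E2F factors, which retinoblastoma family proteins hold in check.

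Because E2F factors are well known regulators of these genes, RefSeq promoters (build GRCm38.p6, 250 bases before to 50 bases after each annotated start) were searched on both strands for the words TTTCCCGC, TTTGGCGC, TTTCGCGC and TTTGCCGC, and matches may overlap. Of the 43 genes, 35 had a promoter in the table, with 42 promoters between them, and 14 of the 42 (33.3%) held at least 1 such word, against 2.26% of all 32851 promoters. The 14 genes were Cdc25a, Cdc6, Cdt1, E2f2, Lig1, Mcm3, Mcm5, Mcm6, Mcm7, Orc1, Pola1, Pold1, Rfc3 and Uhrf1. The share was not particular to the members. It was 33.3% for the other replication genes listed below, 25% for other G1/S control genes and 6.25% for other nucleotide synthesis genes. The CCAAT box, searched as CCAAT on both strands, was found in 57.1% of the members' promoters, against 37.4% of all promoters. The 180 bases before the start are shown for 4 of these genes, Mcm6 and Pola1 because their mRNA fell with P/I in DMSO-treated cells, and Cdc6 and Cdc25a because theirs passed the test for P/I in CHX-treated cells and not in DMSO-treated cells. Capitals mark the E2F words or their reverse complements, and each sequence runs 5′ to 3′ on the gene's own strand. The windows are chr1:128359706-128359885 on the minus strand for Mcm6, chrX:93632156-93632335 on the minus strand for Pola1, chr11:98907971-98908150 on the plus strand for Cdc6 and chr9:109875399-109875578 on the plus strand for Cdc25a.
Mcm6: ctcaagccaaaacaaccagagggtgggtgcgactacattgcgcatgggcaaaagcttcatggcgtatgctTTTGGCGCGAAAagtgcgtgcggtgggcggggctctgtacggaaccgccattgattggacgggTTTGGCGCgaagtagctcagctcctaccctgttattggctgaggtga
Pola1: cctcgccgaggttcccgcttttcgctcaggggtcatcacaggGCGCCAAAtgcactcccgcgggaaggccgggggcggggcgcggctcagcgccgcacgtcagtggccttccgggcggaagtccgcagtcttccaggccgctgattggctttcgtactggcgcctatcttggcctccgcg
Cdc6: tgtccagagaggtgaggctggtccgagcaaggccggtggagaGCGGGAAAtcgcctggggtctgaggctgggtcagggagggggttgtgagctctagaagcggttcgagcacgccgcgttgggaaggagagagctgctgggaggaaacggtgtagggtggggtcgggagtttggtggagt
Cdc25a: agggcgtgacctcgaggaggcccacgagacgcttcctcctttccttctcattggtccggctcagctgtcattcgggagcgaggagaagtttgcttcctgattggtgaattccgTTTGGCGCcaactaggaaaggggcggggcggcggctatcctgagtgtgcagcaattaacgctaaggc
Mcm6 held 3 words, and the first and the second of them overlap in 1 capital run, while Pola1, Cdc6 and Cdc25a held 1 each. A word is a match of letters and does not show that a factor was bound.

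Values are log2 RMA values, the background-corrected, quantile-normalized and summarized brightness of a probe set, and a difference of 1 is a 2-fold change. The 23410 probe sets that carry any gene symbol were tested together with limma, and those whose p adjusted by Benjamini-Hochberg was under 0.1 count as called. Arrays of 1 group correlated at 0.983 to 0.994. Of 9 T cell markers, 8 were measured, and their unstimulated DMSO levels lay at percentiles 76.1 to 99.2 of all probe sets. The measured B cell (4), myeloid (5), erythroid (2) and fibroblast (4) markers lay at percentiles 4.5 to 67.9, 7.9 to 60.4, 27.9 to 42.3 and 25.9 to 60.7. The array of replicate 1 stood apart within every group, with a root mean square deviation from the group mean of 0.171 to 0.224, against 0.111 to 0.174 for replicates 2 and 3. The median of the 43 genes was highest on replicate 1 of every group. Relative to each gene's unstimulated DMSO mean, the median member on replicates 1, 2 and 3 was at 0.08, -0.23 and -0.38 in P/I CHX cells, at -0.16, -0.46 and -0.60 in P/I DMSO cells, at 0.41, 0.06 and 0.04 in unstimulated CHX cells, and at 0.26, -0.09 and -0.16 in unstimulated DMSO cells. The members' median SD within a group was 0.20 in P/I CHX cells, 0.33 in P/I DMSO cells, 0.19 in unstimulated CHX cells and 0.24 in unstimulated DMSO cells, beside 0.11, 0.16, 0.11 and 0.12 over all probe sets.

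**Figure D1:**
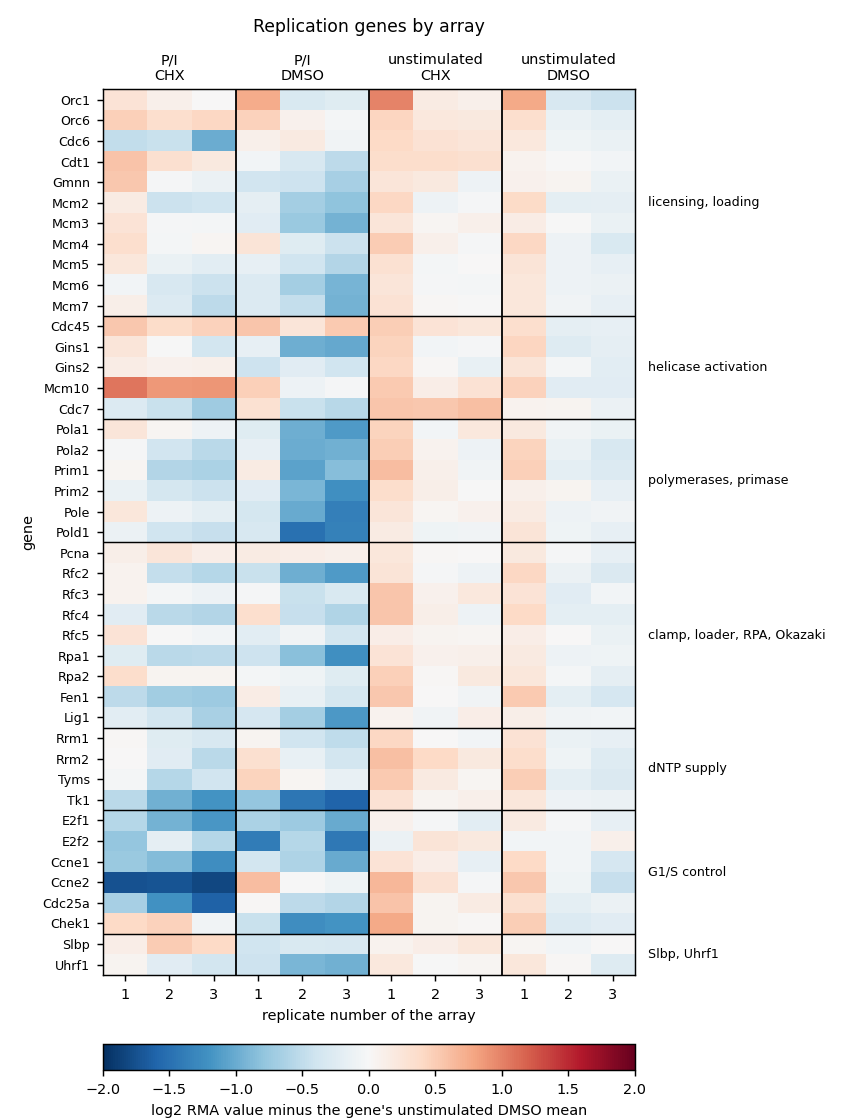
Each of the 43 replication genes (vertical axis, grouped by role) on each of the 12 arrays (horizontal axis, grouped by treatment), coloured by the log2 RMA value minus the gene's mean in unstimulated DMSO cells. Most genes are blue in P/I DMSO cells, where replicates 2 and 3 have members' medians of -0.46 and -0.60, and Ccne2 is the darkest gene on all 3 P/I CHX arrays.

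The first comparison set replication mRNAs after 4 h of P/I against those at 0 h, while protein synthesis was intact. After P/I, 19 of the 43 genes were lower and 1, Cdc45, was higher. Of all 23410 probe sets, 8.42% were called lower and 9.05% higher. The median log2 difference of the 43 genes was -0.38, beside -0.03 over all probe sets. Below 0 lay 35 of the 43, beside 13348 of all 23410 probe sets. This count is no test, because the members also moved together between arrays of 1 group. Every role held genes that fell: 4 of 11 licensing genes, 1 of 5 helicase activation genes, 4 of 6 polymerase and primase genes, 3 of 9 clamp and Okazaki fragment genes, 1 of 4 nucleotide supply genes, 4 of 6 G1/S regulators, and both Slbp and Uhrf1. In RNA from a whole culture, fewer cells in S phase and less mRNA in each such cell cannot be told apart.

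Among the licensing genes, Mcm3, a subunit of the helicase ring, had log2 values of 10.57, 10.06 and 9.85 in P/I DMSO cells, against 10.94, 10.79 and 10.66 in unstimulated DMSO cells. The groups did not overlap, and Mcm3 fell by 0.64 on the log2 scale (SE 0.16, adjusted p = 0.0207 from limma). Its ring partners Mcm6 and Mcm7 differed by -0.62 and -0.56 (adjusted p = 0.0249 and 0.0789 from limma), and Gmnn, which encodes the Cdt1 inhibitor geminin, by -0.49 (adjusted p = 0.0739), all calls in the same direction. Mcm2, Mcm4 and Mcm5 of the same ring did not pass, at -0.56, -0.14 and -0.38 (adjusted p = 0.146, 0.79 and 0.159 from limma). The loading factors Cdt1 (-0.30, adjusted p = 0.145 from limma) and Cdc6 (0.07) and the origin recognition genes Orc1 (0.06) and Orc6 (0.17) did not pass either.

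The helicase activation genes split. Cdc45, which joins the ring to form the active helicase, had log2 values of 9.62, 9.30 and 9.58 in P/I DMSO cells, against 9.39, 8.89 and 8.90 in unstimulated DMSO cells. It rose by 0.44 (SE 0.14, adjusted p = 0.0596 from limma), although stimulated replicate 2 lay under unstimulated replicate 1. Gins1, a subunit of the GINS complex that binds Cdc45, had log2 values of 7.92, 7.11 and 7.06 in P/I DMSO cells, against 8.52, 7.83 and 7.90 in unstimulated DMSO cells. Gins1 fell by 0.72 (SE 0.26, adjusted p = 0.0968 from limma), and its groups overlapped through stimulated replicate 1. Gins2 (-0.35), the kinase gene Cdc7 (-0.23) and Mcm10 (0.11), a factor that helps the helicase to open DNA, did not pass.

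All 6 polymerase and primase genes lay below 0, with a median of -0.79. Pold1, the catalytic subunit of lagging-strand polymerase delta, had log2 values of 8.98, 7.80 and 7.95 in P/I DMSO cells, against 9.54, 9.21 and 9.13 in unstimulated DMSO cells. The groups did not overlap, stimulated replicate 1 lay nearest to the unstimulated arrays, and Pold1 was 2.07-fold lower (adjusted p = 0.0141 from limma). Pole of leading-strand polymerase epsilon (-0.91, adjusted p = 0.0108), Prim2 of primase (-0.79, adjusted p = 0.0226) and Pola1 of the priming polymerase alpha (-0.78, adjusted p = 0.027) also fell in the limma fit. Pola2 and Prim1, partners of the last of these in 1 complex, did not pass at -0.70 and -0.59 (adjusted p = 0.107 and 0.318 from limma).

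At the fork, Rpa1, the large subunit of the single-strand binding protein RPA, had log2 values of 9.59, 9.16 and 8.78 in P/I DMSO cells, against 10.18, 9.91 and 9.92 in unstimulated DMSO cells. Rfc2 of the clamp loader had 9.05, 8.52 and 8.36 in P/I DMSO cells, against 9.91, 9.37 and 9.21 in unstimulated DMSO cells. Neither gene's groups overlapped, and in the limma fit Rpa1 fell by 0.83 (SE 0.17, adjusted p = 0.00666) and Rfc2 by 0.85 (SE 0.23, adjusted p = 0.0273). Lig1, the ligase that joins Okazaki fragments, fell by 0.72 (adjusted p = 0.0159 from limma). The clamp itself, Pcna, did not pass at 0.13 (adjusted p = 0.495 from limma), and its other probe set gave 0.14. The clamp loader genes Rfc3, Rfc4 and Rfc5 (-0.26, -0.24 and -0.22), the RPA subunit gene Rpa2 (-0.13) and the flap nuclease gene Fen1 (-0.12) did not pass.

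Of the nucleotide supply genes, Tk1 alone fell. Tk1, the S-phase thymidine kinase of the salvage pathway, had log2 values of 9.15, 8.47 and 8.32 in P/I DMSO cells, against 10.15, 9.82 and 9.82 in unstimulated DMSO cells. Every stimulated array lay below every unstimulated one, and the gene was 2.42-fold lower (log2 -1.28, SE 0.21, adjusted p = 0.00144 from limma), the smallest adjusted p of the 43 genes in this comparison. A separate Tk1 probe set gave -1.35. Rrm1 and Rrm2, the subunits of ribonucleotide reductase, differed by -0.28 and -0.06 and Tyms, thymidylate synthase, by 0.12 (adjusted p = 0.404, 0.908 and 0.835 from limma).

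The G1/S regulators that fell included both E2F genes among the members. E2f1 had log2 values of 7.48, 7.38 and 7.10 in P/I DMSO cells, against 8.29, 8.09 and 7.96 in unstimulated DMSO cells. E2f2 had 5.80, 6.63 and 5.77 in P/I DMSO cells, against 7.15, 7.15 and 7.30 in unstimulated DMSO cells. Neither gene's groups overlapped, and stimulated replicate 2 was the high array for E2f2. E2f1 was 1.73-fold lower (adjusted p = 0.00447) and E2f2 2.19-fold lower (adjusted p = 0.00373) in the limma fit. Chek1, the kinase of the replication checkpoint, fell by 0.96 and Ccne1, cyclin E1, by 0.67 (adjusted p = 0.0381 and 0.0586 from limma). Ccne2, cyclin E2, and Cdc25a, the phosphatase that activates the kinase partner of cyclin E, did not pass at 0.17 and -0.36.

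Uhrf1, which carries DNA methyltransferase to newly copied DNA, had log2 values of 9.20, 8.71 and 8.66 in P/I DMSO cells, against 9.85, 9.64 and 9.36 in unstimulated DMSO cells. Its groups did not overlap, and it fell by 0.76 (SE 0.17, adjusted p = 0.00854 from limma). Slbp, the stem-loop binding protein of histone mRNA, fell by 0.34 (SE 0.10, adjusted p = 0.0356 from limma), and its other probe set gave -0.33. With the replicate number as a block, 28 members were lower, where 12.9% of all probe sets were, and the 9 added were Cdt1, Mcm2, Mcm5, Gins2, Pola2, Prim1, Rfc3, Rrm1 and Cdc25a (adjusted p = 0.000171 to 0.0573 from limma). Without P/I DMSO replicate 3 the count that fell was 11 and Cdc45 was not called, and the calls of Gmnn, Mcm6, Mcm7, Gins1, Pola1, Rfc2, Ccne1 and Chek1 were the 8 lost without that array.

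The second comparison asked what CHX did in cells that received P/I. It shares the P/I DMSO arrays with the first one, so low values on those arrays enter both, as negative differences there and positive ones here. CHX raised 14 of the 43 genes and lowered 3, where 13.2% of all probe sets were called higher and 12% lower. The members' median difference was 0.33, beside 0.01 over all probe sets. Above 0 lay 33 of the 43, beside 12200 of all 23410 probe sets, and this count is no test either. The genes that rose were Cdt1, Gmnn and Mcm3 of licensing, Gins1, Gins2 and Mcm10 of helicase activation, Pola1, Pole and Pold1 of the polymerases, the clamp loader gene Rfc5, E2f2 and Chek1, and both Slbp and Uhrf1. Those that fell were Cdc6, Ccne2 and Cdc25a.

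Cdt1, a loader of the helicase ring, had log2 values of 9.62, 9.37 and 9.24 in P/I CHX cells, against 8.99, 8.72 and 8.53 in P/I DMSO cells. Mcm3 had 11.06, 10.77 and 10.76 in P/I CHX cells, against 10.57, 10.06 and 9.85 in P/I DMSO cells. The groups of each gene did not overlap, and in the limma fit Cdt1 was 1.58-fold higher (adjusted p = 0.00182) and Mcm3 1.63-fold higher (adjusted p = 0.00825). Cdc6, which works beside Cdt1, had 8.15, 8.20 and 7.65 in P/I CHX cells, against 8.76, 8.82 and 8.59 in P/I DMSO cells. All 3 CHX arrays lay below the DMSO arrays, and Cdc6 was 1.65-fold lower (log2 -0.72, SE 0.14, adjusted p = 0.00345 from limma).

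Mcm10 had log2 values of 10.27, 10.08 and 10.09 in P/I CHX cells, against 9.68, 9.10 and 9.17 in P/I DMSO cells, and Pole had 9.39, 9.06 and 8.96 in P/I CHX cells, against 8.80, 8.15 and 7.79 in P/I DMSO cells. Replicate 1 was the highest array of each group for both genes, and neither gene's groups overlapped. Mcm10 rose by 0.83 (SE 0.20, adjusted p = 0.00952) and Pole by 0.89 (SE 0.21, adjusted p = 0.0087) in the limma fit. Chek1 gave the largest rise of the 43 genes, with 9.56, 9.62 and 9.09 in P/I CHX cells, against 8.72, 7.92 and 7.96 in P/I DMSO cells. It was 2.33-fold higher (log2 1.22, SE 0.28, adjusted p = 0.00727 from limma) with no overlap of the groups.

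Slbp had log2 values of 9.97, 10.35 and 10.24 in P/I CHX cells, against 9.44, 9.55 and 9.53 in P/I DMSO cells. The DMSO arrays lay close together and the CHX arrays above all of them, and Slbp rose by 0.68 (SE 0.10, adjusted p = 0.000343 from limma), while its other probe set gave 0.72. Ccne2 moved most of the 43 genes, with 5.12, 5.14 and 5.04 in P/I CHX cells, against 7.47, 6.85 and 6.77 in P/I DMSO cells. It was 3.81-fold lower (log2 -1.93, SE 0.25, adjusted p = 0.000189 from limma). The Ccne2 values in P/I CHX cells were low for these arrays. In the same cells the erythroid marker Alas2 and the myeloid marker Csf1r, picked after their values were seen, had means of 5.05 and 5.18. Values this near background limit how well the size of the fall is known. Cdc25a had 9.22, 8.68 and 8.27 in P/I CHX cells, against 9.91, 9.36 and 9.31 in P/I DMSO cells, and was 1.75-fold lower (adjusted p = 0.0356 from limma) with no overlap.

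No clamp, RPA or Okazaki fragment gene and no nucleotide supply gene fell, and of these 13 genes Rfc5 alone rose (0.29, adjusted p = 0.0904 from limma). The largest difference among the fork genes was that of Fen1, with 8.01, 7.85 and 7.81 in P/I CHX cells, against 8.69, 8.39 and 8.19 in P/I DMSO cells. The groups did not overlap, but -0.54 did not pass (SE 0.22, adjusted p = 0.126 from limma). Tyms, the largest among the nucleotide supply genes, had 8.70, 8.16 and 8.35 in P/I CHX cells, against 9.18, 8.78 and 8.58 in P/I DMSO cells. Its groups overlapped, and -0.44 did not pass (SE 0.23, adjusted p = 0.225 from limma). Without P/I DMSO replicate 3, 8 genes were higher, and Gins1, Gins2, Pold1, Rfc5, E2f2 and Uhrf1 no longer passed, and Cdc25a did not pass without P/I DMSO replicate 1 or P/I CHX replicate 3. With each array centred on its median, 3751 probe sets were higher and 2194 lower in this comparison, and with a further quantile normalization 4201 and 2669, against 3096 and 2818 as deposited, and the members' counts were 13 and 3 with centring and 19 and 4 with quantile normalization.

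**Figure D2:**
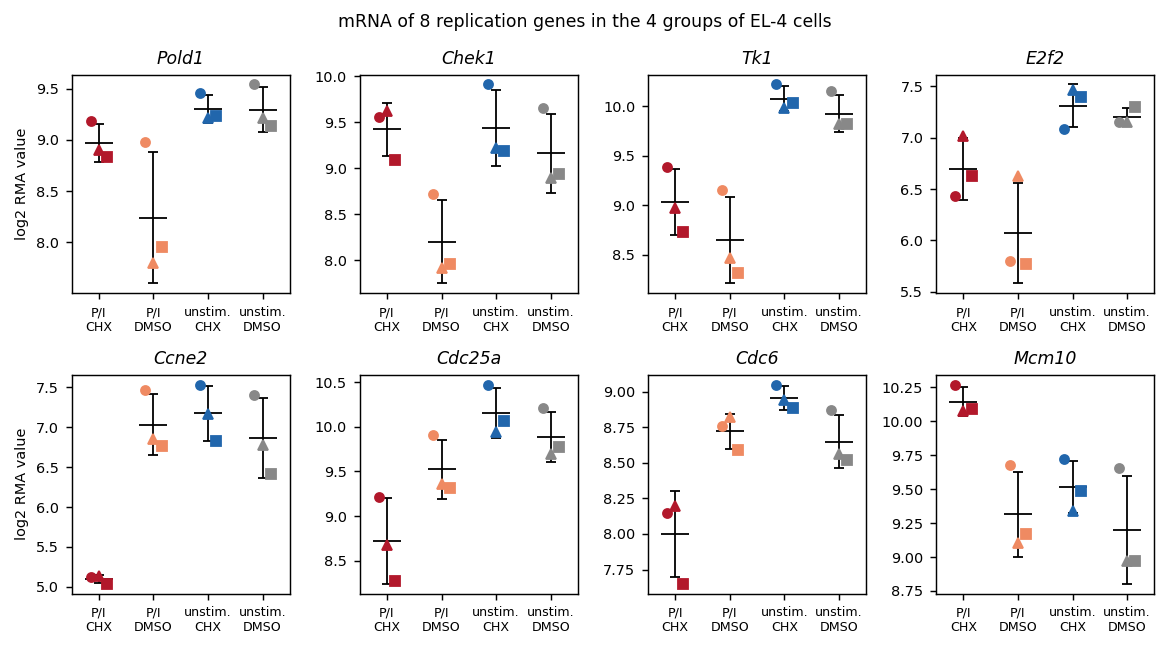
Log2 RMA values (vertical axis) of 8 replication genes in the 4 groups (horizontal axis), with circles, triangles and squares for replicates 1, 2 and 3 and a bar for the mean ± SD (n = 3 each). Pold1 and Chek1 are lowest in P/I DMSO cells, Tk1 and E2f2 are low in both P/I groups, Ccne2, Cdc25a and Cdc6 are lowest in P/I CHX cells, and Mcm10 is highest in P/I CHX cells.

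CHX alone, in unstimulated cells, gave no call among the 43 genes by limma. The time these cells spent in CHX beyond the pretreatment is not stated. The comparison therefore cannot show what CHX alone would do over the length of a P/I treatment. At an unadjusted p under 0.05, 3 genes were higher (Cdc45, Cdc7 and Cdt1) and 0 lower. At the same threshold, 967 of all 23410 probe sets were higher and 641 lower. An unmoderated fit of the same values gave 0 calls. The limma fit called 0.0299% of all probe sets higher and 0% lower at an adjusted p under 0.1. The differences ran 1 way, with 42 of 43 genes above 0 and a median of 0.15, beside -0.02 over all probe sets, of which 10501 of 23410 were above 0. This count is no test, because the members also moved together between arrays of 1 group. Below the unstimulated DMSO mean lay 1 of the 43 on unstimulated DMSO replicate 1 and 41 on replicate 3. The largest CHX difference belonged to Cdc7, with log2 values of 7.50, 7.48 and 7.55 in unstimulated CHX cells, against 7.02, 6.99 and 6.82 in unstimulated DMSO cells. Its groups did not overlap, and the difference of 0.56 (SE 0.19) did not pass (adjusted p = 0.62 from limma). With the replicate number as a block, 0.491% of all probe sets were higher and 1 member was among them, Rrm2 (0.40, adjusted p = 0.0844 from limma), which had 10.03, 9.81 and 9.62 in unstimulated CHX cells, against 9.77, 9.33 and 9.16 in unstimulated DMSO cells.

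The fourth comparison asked what P/I did when CHX was present, and it shares no array with the first. P/I lowered 11 of the 43 genes and raised 1, Mcm10, where 11.6% of all probe sets were called lower and 10.2% higher. Slbp did not pass (0.20, adjusted p = 0.215 from limma), but its other probe set was called higher (0.21, adjusted p = 0.0873 from limma). With the replicate number as a block, 16.9% of all probe sets and 24 members were lower. The members' median was -0.32, beside 0.02 over all probe sets. The genes that fell were 5 of the 6 G1/S regulators (E2f1, E2f2, Ccne1, Ccne2 and Cdc25a), Tk1 and Rrm2 of nucleotide supply, Rpa1 and Fen1 of the fork, the loader Cdc6 and the kinase gene Cdc7. No polymerase or primase gene passed, at -0.61 to -0.15, and the 13 genes added by the block were Mcm2, Mcm6, Mcm7, Pola2, Prim1, Prim2, Rfc2, Rfc3, Rfc4, Lig1, Rrm1, Tyms and Uhrf1 (adjusted p = 0.000826 to 0.053 from limma).

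Ccne2 had log2 values of 5.12, 5.14 and 5.04 in P/I CHX cells, against 7.53, 7.16 and 6.83 in unstimulated CHX cells. It was 4.20-fold lower (log2 -2.07, SE 0.25, adjusted p = 0.00016 from limma), the largest change of any member in any of the 4 pairwise comparisons. The nearness of its P/I CHX values to background limits the size of this fall and of its interaction too. Cdc25a had 9.22, 8.68 and 8.27 in P/I CHX cells, against 10.47, 9.94 and 10.06 in unstimulated CHX cells. It was 2.70-fold lower (adjusted p = 0.00155 from limma), and the groups did not overlap.

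Cdc6 had log2 values of 8.15, 8.20 and 7.65 in P/I CHX cells, against 9.05, 8.94 and 8.89 in unstimulated CHX cells, and Cdc7 had 6.68, 6.50 and 6.23 in P/I CHX cells, against 7.50, 7.48 and 7.55 in unstimulated CHX cells. Both genes were lower on every stimulated array. Cdc6 fell by 0.96 (SE 0.14, adjusted p = 0.000711) and Cdc7 by 1.04 (SE 0.19, adjusted p = 0.00233) in the limma fit. E2f1 had 7.55, 7.17 and 6.95 in P/I CHX cells, against 8.20, 8.09 and 7.90 in unstimulated CHX cells, and was 1.79-fold lower (adjusted p = 0.00268 from limma). Mcm10 went the other way, with 10.27, 10.08 and 10.09 in P/I CHX cells, against 9.72, 9.34 and 9.49 in unstimulated CHX cells, and was 1.55-fold higher (adjusted p = 0.0476 from limma). The calls of Fen1, Rpa1, Rrm2, E2f2 and Mcm10 did not hold when single arrays were left out, Fen1 without unstimulated CHX replicate 1 alone.

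Of the 11 genes that fell with P/I in CHX and the 19 that fell with P/I in DMSO, 5 were the same, Tk1, Rpa1, E2f1, E2f2 and Ccne1. For Tk1 the log2 values were 9.39, 8.97 and 8.73 in P/I CHX cells, against 10.22, 9.98 and 10.03 in unstimulated CHX cells, a fall of 1.05 that stood beside one of 1.28 in DMSO. The 6 genes called lower in CHX and not in DMSO were Ccne2, Cdc25a, Cdc6, Cdc7, Fen1 and Rrm2, and the 14 called in DMSO and not in CHX held Pola1, Pole, Pold1, Prim2, Mcm3, Mcm6, Mcm7, Chek1 and both Slbp and Uhrf1. A call in 1 condition and not in the other is no test of a difference, which the interaction of P/I and CHX gives.

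The interaction, the P/I difference in CHX minus that in DMSO, passed for 5 of the 43 genes, 1 higher and 4 lower, where 6.04% of all probe sets were called higher and 7.62% lower. Ccne2 differed by -2.07 with P/I in CHX and by 0.17 with P/I in DMSO, an interaction of -2.24 (SE 0.36, adjusted p = 0.00227 from limma). Cdc6 differed by -0.96 with P/I in CHX and by 0.07 in DMSO, an interaction of -1.03 (SE 0.20, adjusted p = 0.00778 from limma). These genes, a cyclin and an origin loader, were thus lower in P/I CHX than in unstimulated CHX cells, and their P/I differences in DMSO did not pass. The CHX groups may also differ in their time in CHX, so its effect and that of P/I cannot be told apart.

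Cdc25a differed by -1.43 with P/I in CHX and by -0.36 in DMSO (interaction -1.07, adjusted p = 0.0797 from limma), and Cdc7 by -1.04 and -0.23 (interaction -0.81, adjusted p = 0.085 from limma). Slbp was the 1 gene with a higher interaction, with 0.20 in CHX and -0.34 in DMSO (interaction 0.54, SE 0.14, adjusted p = 0.0277 from limma). For the polymerase and primase genes the interactions were -0.02 to 0.76 and none passed without the replicate block, and for Chek1 it was 0.94 (SE 0.39, adjusted p = 0.181 from limma). With the replicate number as a block, 11 members were higher and 9 lower, where 10% of all probe sets were called higher and 12.2% lower. The members added as higher were Gmnn, Mcm3, Gins1, Mcm10, Pola1, Pole, Pold1, Rfc2, Chek1 and Uhrf1, and those added as lower were Rfc4, Fen1, Rrm2, Tyms and Ccne1 (adjusted p = 0.00376 to 0.0942 from limma). Chek1 was among them at an adjusted p of 0.00728 and Pole at 0.0165. The calls of Cdc25a and Cdc7 without the block were each lost on leaving out any of several single arrays, and the number higher was 9 without P/I DMSO replicate 1.

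**Figure D3:**
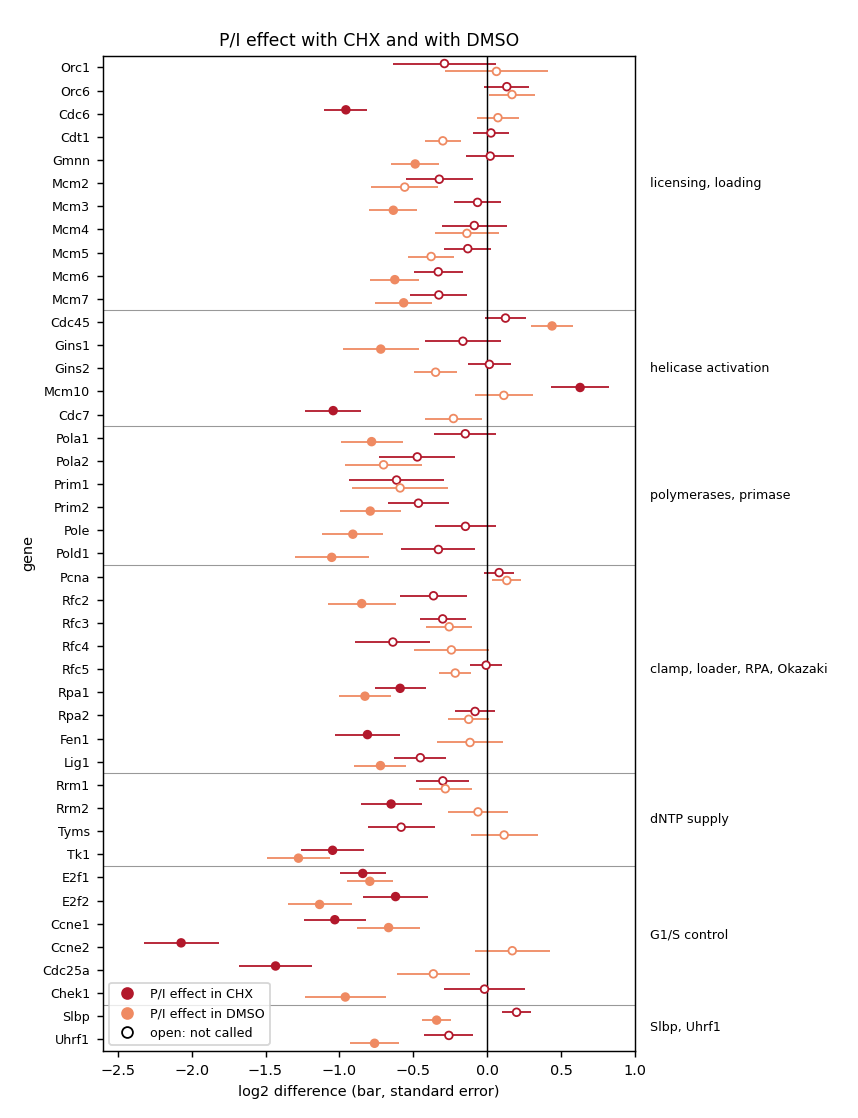
Log2 difference between P/I and unstimulated cells (horizontal axis, bars the limma standard error) for each of the 43 genes (vertical axis), dark red in CHX-treated and orange in DMSO-treated cells, with filled points for adjusted p under 0.1. The pairs of points lie farthest apart for Ccne2, at -2.07 in CHX and 0.17 in DMSO, and the orange points of the polymerase genes lie at -1.05 to -0.59.

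Without the replicate block, 30 of the 43 genes were called in at least 1 of the 5 comparisons. The 13 called in none were Mcm2, Mcm4, Mcm5, Orc1, Orc6, Pcna, Pola2, Prim1, Rfc3, Rfc4, Rpa2, Rrm1 and Tyms. With the replicate number as a block, Mcm2, Mcm5, Pola2, Prim1, Rfc3, Rfc4, Rrm1 and Tyms were lower with P/I in DMSO, in CHX or in both. The block also called Orc6, Mcm4 and Rpa2 higher with CHX during P/I (adjusted p = 0.0779, 0.0573 and 0.0312 from limma). Orc1 and Pcna were called in no comparison with it. Within each replicate number the P/I difference in DMSO had a members' median of -0.38, -0.41 and -0.46 for numbers 1, 2 and 3. The medians over all probe sets were -0.06, -0.01 and 0. Of the 43 genes, 33 were below 0 in all 3 numbers. Members that move together make this count no test, and it was not made over all probe sets. The P/I difference in CHX had members' medians of -0.28, -0.29 and -0.39 within the 3 numbers, and that of CHX during P/I 0.18, 0.32 and 0.41. By promoter, 8 of the 14 genes that fell with P/I in DMSO and had a promoter sequence held an E2F word (E2f2, Lig1, Mcm3, Mcm6, Mcm7, Pola1, Pold1 and Uhrf1), and so did 6 of the 20 that were not called (Cdc25a, Cdc6, Cdt1, Mcm5, Orc1 and Rfc3). Of the 10 that fell with P/I in CHX, 3 did (Cdc25a, Cdc6 and E2f2), and so did 11 of the 24 that were not called. A link between words and calls was not tested. The printed promoters of Mcm6 and Pola1, called in DMSO, and of Cdc6 and Cdc25a, called in CHX, cannot show such a link. They were picked from the genes with a word because of these calls.

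Other genes of the same processes were read from lists. Of 37 further replication origin and fork genes, 12 were lower and 1 higher with P/I in DMSO (median -0.40), 2 were lower and 8 higher with CHX during P/I (median 0.26), and 9 were lower and 0 higher with P/I in CHX. Chaf1a of the histone chaperone that follows the fork fell by 0.62 and Dtl, which helps to destroy Cdt1, by 0.92 with P/I in DMSO, while Pole4, a small subunit of polymerase epsilon, rose by 0.72 (adjusted p = 0.00137, 0.00148 and 0.0056 from limma). With CHX during P/I, Ticrr, needed to load Cdc45, rose by 1.40, Mcm9 by 0.99 and Dtl by 0.86 (adjusted p = 0.00064, 0.000611 and 0.00157 from limma). Of the genes named here, Chaf1a, Dtl, Pole4 and Ticrr were called in both of these comparisons, which share the P/I DMSO arrays.

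The 27 measured genes of nucleotide synthesis outside the members gave 4 lower and 3 higher with P/I in DMSO (median 0.03), 1 lower and 2 higher with CHX during P/I (median -0.13) and 3 lower and 2 higher with P/I in CHX. The deoxynucleoside kinase genes Dck and Dguok fell by 0.76 and 0.61 with P/I and rose by 0.54 and 0.56 with CHX during P/I (adjusted p = 0.0115, 0.00151, 0.048 and 0.00187 from limma). Impdh1 of guanine nucleotide synthesis fell by 0.54 with P/I in DMSO, and Ctps, CTP synthase, fell by 0.98 with CHX during P/I (adjusted p = 0.0172 and 0.068 from limma).

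Of 23 further measured E2F, pocket protein and G1/S control genes, 7 were lower and 2 higher with P/I in DMSO, 9 lower and 9 higher with CHX during P/I, and 15 lower and 3 higher with P/I in CHX. Rbl2, a retinoblastoma family member, had log2 values of 7.98, 7.43 and 7.62 in P/I DMSO cells, against 9.30, 9.49 and 9.50 in unstimulated DMSO cells (-1.75, adjusted p = 7.63e-06 from limma), and it was 1.14 higher with CHX during P/I (adjusted p = 0.000135). E2f8, a repressor of E2F targets, fell by 1.60 and Ccnd3, cyclin D3, by 1.06 with P/I in DMSO (adjusted p = 2.66e-05 and 0.000145 from limma). Ccnd1, cyclin D1, had 9.29, 9.40 and 8.91 in P/I CHX cells, against 11.09, 11.83 and 11.50 in P/I DMSO cells (-2.27, adjusted p = 3.04e-06 from limma), and Cdkn2d, an inhibitor of the cyclin D kinases, rose by 1.84 (adjusted p = 0.00025 from limma) in the same comparison.

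Mitosis genes are transcribed later in the cycle than the members. Of 29 measured, 20 were lower and 0 higher with P/I in DMSO (median -0.85), 0 lower and 19 higher with CHX during P/I (median 0.79), 2 lower and 1 higher with P/I in CHX, and the interaction was higher for 11 and lower for 0. Cdc25b, Bub1 and Aurkb, a phosphatase and kinases of mitotic entry and spindle control, fell by 1.41, 1.40 and 0.85 with P/I in DMSO (adjusted p = 0.000525, 0.00112 and 0.000814 from limma). Cdc25c, Ndc80 and Aurkb rose by 1.62, 1.20 and 0.97 with CHX during P/I (adjusted p = 0.000206, 0.000247 and 0.000225 from limma). E2F words were in 3.85% of the 26 promoters of this list and the CCAAT box in 73.1%. Of 9 measured reference genes with broad expression, 1 was lower with P/I in DMSO (Sdha, -0.42, adjusted p = 0.0393 from limma) and 0 were called with CHX during P/I. With P/I in CHX, 2 of the 9 were lower (Gusb, -0.71, and Pgk1, -0.35) and 1 was higher (Ywhaz, 0.28), 22.2% lower beside 25.6% of the 43 members.

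**Figure D4:**
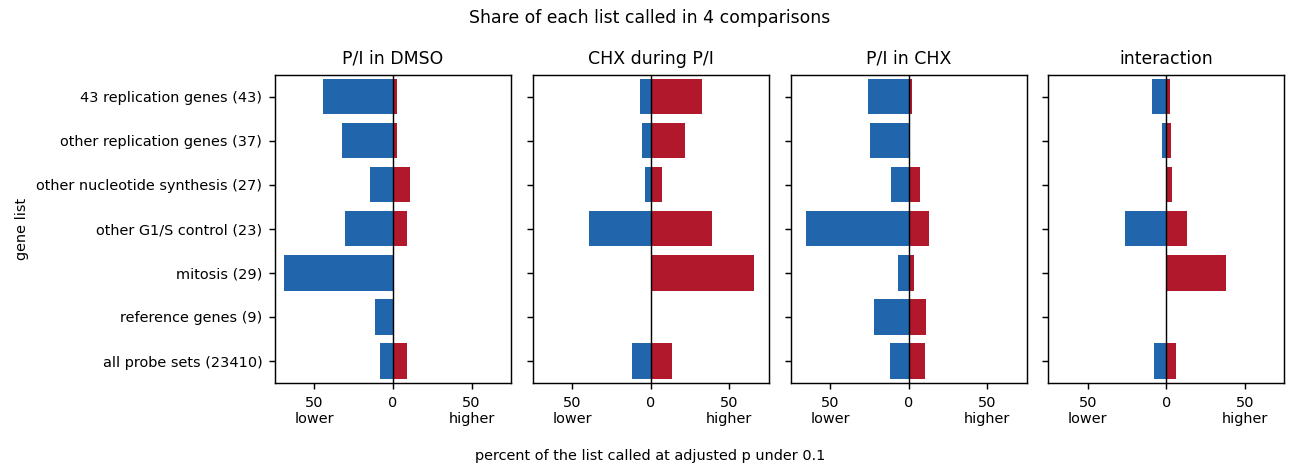
Share of each gene list (vertical axis, with the number measured) called lower (blue, to the left) or higher (red, to the right) at adjusted p under 0.1 in 4 comparisons, in percent. The 43 replication genes are lower in 44.2% with P/I in DMSO and higher in 32.6% with CHX during P/I, and the bars of the mitosis list reach 69% and 65.5%.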

How the data were processed

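Total RNA of EL-4 cells was hybridised to 12 Affymetrix Mouse Gene 1.0ST arrays, 3 for each of 4 groups. The log2 values deposited by the authors came from Partek, with quantile normalization and RMA, whose background step allowed for probe sequence (version not given in the sources used here). The table of 35399 probe sets was used as deposited. GEO's platform annotation gave 1 symbol to 21789 probe sets, several to 1621 and none to 11989, and each gene was read from the one-symbol probe set with the highest mean. The 4 group means were fitted by lmFit and eBayes (limma 3.58.1, R 4.3.3, 8 residual degrees of freedom), with two-sided p-values adjusted by Benjamini-Hochberg over 23410 probe sets with any symbol. The fit was tested on simulated data. An array design has no read depth, and 3 arrays a group limit the precision.

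The members, gene lists and tests were chosen with earlier results of these data known, so no count is independent support. Values on each array are given for up to 5 called members a direction with the smallest p in each pairwise comparison and for the member of each role with the largest difference with P/I in DMSO and with CHX during P/I, and up to 3 genes a list with the smallest p are named for each of these comparisons. The genes and array values named under CHX alone and the second probe sets of Pcna, Tk1 and Slbp were chosen after they were seen.

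Replicate numbers come from the labels. Deviations of same-numbered arrays from their group means correlated at 0.27 to 0.574 for P/I in DMSO, 0.511 to 0.75 for CHX in unstimulated cells and 0.301 to 0.479 for P/I in CHX, and for these, and for the interaction as the difference between the P/I effects in CHX and in DMSO, the number was taken to pair the arrays. Alternatives were the replicate number as a block, leaving out each array, median centring, quantile normalization, a mean of at least log2 5, all probe sets, an unmoderated variance as in the methods' analysis of variance, and an adjusted p under 0.05. Leaving out the 4 arrays of replicate 1 was added after seeing the data.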

Additional observations from a re-analysis of the deposited data

Results flagged for a closer look

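In 5 of the 43 replication genes the response to P/I differed between CHX-treated and DMSO-treated cells by the interaction test of limma, 1 higher and 4 lower, where 6.04% of all probe sets were higher and 7.62% lower. The difference was -2.24 on the log2 scale for Ccne2 (-2.07 in CHX and 0.17 in DMSO, adjusted p = 0.00227), -1.03 for Cdc6 (-0.96 in CHX and 0.07 in DMSO, adjusted p = 0.00778), -1.07 for Cdc25a (-1.43 in CHX and -0.36 in DMSO, adjusted p = 0.0797), -0.81 for Cdc7 (-1.04 in CHX and -0.23 in DMSO, adjusted p = 0.085) and 0.54 for Slbp (0.20 in CHX and -0.34 in DMSO, adjusted p = 0.0277). All 5 kept the sign of the interaction within each of the 3 replicate numbers, but they were picked on these same arrays. Of the 43 members, 11 lay below 0 and 23 above 0 in all 3 numbers, so the shared sign is no further support. The calls of Cdc25a and Cdc7 were lost with median centring, all probe sets, an unmoderated variance and an adjusted p under 0.05, that of Cdc7 also with quantile normalization, and on leaving out any of 7 single arrays for Cdc25a and 8 for Cdc7. Time in CHX is not stated for unstimulated CHX cells, so a longer CHX exposure of P/I CHX cells and P/I itself cannot be told apart.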

How the results depend on the processing

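The counts of members called with P/I in DMSO were 1 higher and 19 lower, and those lower lay between 14 and 28 under the alternatives other than leaving out single arrays. Those higher became 0 with median centring, with an unmoderated variance and at an adjusted p under 0.05. Leaving out single arrays gave 0 to 1 higher and 11 to 25 lower with P/I in DMSO, 8 to 21 higher and 2 to 4 lower with CHX during P/I, 0 with CHX in unstimulated cells, 0 to 1 higher and 8 to 15 lower with P/I in CHX, and 1 to 9 higher and 2 to 6 lower for the interaction. The lowest counts of 11 with P/I in DMSO and 8 with CHX during P/I were those without P/I DMSO replicate 3, the lowest of 8 with P/I in CHX that without unstimulated CHX replicate 1 or P/I CHX replicate 3, and the highest counts of 25, 21, 15 and 9 those without P/I DMSO replicate 1. Cdc45 was not called with P/I in DMSO without unstimulated DMSO replicate 2 or 3 or P/I DMSO replicate 1 or 3, and Gmnn, Mcm7, Gins1, Ccne1 and Chek1 also not without unstimulated DMSO replicate 1 or P/I DMSO replicate 2, nor, Chek1 excepted, unstimulated DMSO replicate 2. Pold1, Rfc5, Gins1 and E2f2 with CHX during P/I also failed without P/I CHX replicate 2. With P/I in CHX, Mcm10 failed without unstimulated CHX replicate 2 or 3 or P/I CHX replicate 1 or 3, Rpa1 and Rrm2 without unstimulated CHX replicate 1 or P/I CHX replicate 2 or 3, and E2f2 without unstimulated CHX replicate 2 or 3 or P/I CHX replicate 1 or 3. The interaction was lower for 2 genes without unstimulated DMSO replicate 2 or 3, unstimulated CHX replicate 1 or 3, or P/I CHX replicate 2 or 3, and higher for 2 without P/I DMSO replicate 2 or unstimulated CHX replicate 1. With the replicate number as a block, CHX during P/I gave 27 higher and 6 lower, CHX in unstimulated cells 1 higher, P/I in CHX 24 lower, and the interaction 11 higher and 9 lower, and it moved no other count by over 1.5 times. Of all probe sets, the block called 3863 higher and 3744 lower with CHX during P/I, against 3096 and 2818 without it. Same-numbered arrays of the P/I CHX and P/I DMSO groups correlated at only 0.064 to 0.277, so for CHX during P/I the arrays share only a number. Without the 4 arrays of replicate 1, a choice made after seeing the data, CHX during P/I gave 27 higher and 5 lower, CHX in unstimulated cells 5 higher, P/I in CHX 2 higher and 24 lower, and the interaction 10 higher and 7 lower. Calls over all probe sets rose too. CHX during P/I then gave 4032 higher and 3560 lower, against 3096 and 2818 with all arrays. CHX in unstimulated cells gave 662 and 89, against 7 and 0. P/I in CHX gave 3047 and 3574, against 2389 and 2719, and the interaction 2260 and 2406, against 1413 and 1783. The interaction was higher for 6 with quantile normalization, and lower for 2 with median centring, all probe sets, an unmoderated variance or an adjusted p under 0.05, and P/I in CHX gave 0 higher with an unmoderated variance. With quantile normalization the interaction of all probe sets was higher in 2065 and lower in 1625, against 1413 and 1783 as deposited. No called member changed sign. The calls that held under every alternative were 11 of 20 with P/I in DMSO (Mcm3, Prim2, Pole, Pold1, Rpa1, Lig1, Tk1, E2f1, E2f2, Slbp and Uhrf1), 10 of 17 with CHX during P/I (Cdc6, Cdt1, Gmnn, Mcm3, Mcm10, Pola1, Pole, Ccne2, Chek1 and Slbp), 7 of 12 with P/I in CHX (Cdc6, Cdc7, Tk1, E2f1, Ccne1, Ccne2 and Cdc25a) and 3 of 5 for the interaction (Cdc6, Ccne2 and Slbp). The causes of these shifts were not tested.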
